A study of Mus musculus with 2 samples.

Results

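Genes that phagocytes use to sense and clear antibody-coated or damaged material were followed in mouse primary hepatocytes: the Fcγ receptors *Fcgr1*, *Fcgr2b*, *Fcgr3* and *Fcgr4*, the adaptors *Fcer1g* and *Tyrobp*, the receptor *Trem2*, and *Cd68*, *Lyz2* and *Aif1*. They are 10 genes chosen by name, and their 15 probes are all those of the array design that carry one of the 10 names, of 37074 gene names and 56605 probes in all. RNA was measured with 1 one-color 60-mer mouse array per genotype, in cells cultured without treatment and harvested 24 h after seeding. Control cells came from Drp1flox/flox littermates, which the sample label calls wild type, and *Drp1*LiKO cells from Alb-Cre Tg/+ Drp1flox/flox littermates, both on a C57BL/6 background. Both groups thus carry the floxed *Dnm1l* alleles, *Dnm1l* being the gene of the fission GTPase Drp1. The albumin promoter that drives Cre is active in hepatocytes, so cells of other types are not its target. Hepatocytes were isolated by collagenase perfusion and low-speed sedimentation and plated on collagen. Neither the age of the mice nor the number of mice per array is given in the sources used here.

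Fcγ receptors bind the constant part of IgG. The activating receptors encoded by *Fcgr1*, *Fcgr3* and *Fcgr4* carry no signaling motif of their own and depend on the common γ chain encoded by *Fcer1g*, whose activation motif (ITAM) recruits the kinase Syk, while *Fcgr2b* encodes the inhibitory receptor, which carries an inhibitory motif (ITIM) and recruits phosphatases. *Tyrobp* encodes DAP12, a second ITAM adaptor, through which Trem2 and related receptors signal, and *Cd68*, *Lyz2* and *Aif1* encode an endolysosomal glycoprotein, a lysozyme and an actin-binding protein of macrophages. In the liver these genes are known for Kupffer cells and recruited monocytes, and *Fcgr2b* also for the sinusoidal endothelium, which uses it to take up immune complexes.

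The arrays measured RNA by hybridization to printed oligonucleotides, and 4 of the 15 sequences are shown. These, in lower case as on the strand of the transcript and with mm9 positions from the array files, read receptor and adaptor transcripts that resemble each other in function. No probe of another gene shared 20 bases with any of the 15 member probes. Probes were compared with probes and not with transcripts, so whether a probe also reads a related transcript was not tested. For *Fcgr1* and *Tyrobp* the sequences shown are the only probes. For *Fcgr2b* and *Fcgr3* they are the dimmer second probes, which were not well above background in control and gave the bounds below, not the main ratios. The *Fcgr1* probe lies at chr3:96088462-96088521, the second *Fcgr2b* probe at chr1:172895833-172895892 and the second *Fcgr3* probe at chr1:172984129-172984188, all on the minus strand. The 60 bases of the *Tyrobp* probe are spread over chr7:31200651-31202378 on the plus strand, a stretch of 1728 bases, so the probe joins exons. No gene annotation in this build was used here to place the other probes in exons.
Fcgr1: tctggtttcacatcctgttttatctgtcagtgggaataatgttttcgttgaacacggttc
Fcgr2b, second probe: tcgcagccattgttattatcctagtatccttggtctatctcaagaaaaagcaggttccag
Fcgr3, second probe: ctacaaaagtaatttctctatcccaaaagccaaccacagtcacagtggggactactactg
Tyrobp: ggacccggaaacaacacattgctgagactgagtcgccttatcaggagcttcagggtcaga

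All 10 genes were higher on the *Drp1*LiKO array, and the 8 measured well above background on both arrays passed a Z score of 2. The other 2, *Fcgr1* and *Fcgr4*, were well above background on the *Drp1*LiKO array only. They were compared because of that array, so their direction was largely set by the filter. The Z score is the log2 ratio of *Drp1*LiKO to control minus the mean over the 30275 probes detected on at least 1 array, divided by their SD of 0.65, so that 2 lies at a log2 ratio of 1.30, or 2.46-fold. Across all 20165 genes compared, 3.5% were higher past this score, 2.81% were lower past a score of -2, and no member was lower. At least 4-fold higher were 6 members, against 1.49% of all genes. By probe, 13 of the 15 member probes passed the score, against 2.94% of all probes. Of these 15 probes, 11 were well above background on both arrays and 4 on the *Drp1*LiKO array only. The members' median log2 ratio was 2.31 (4.94-fold), and 2.41 over the 8 measured well above background on both arrays, whereas the median of all genes was -0.05. With 1 array per genotype no test was possible, and neither spread between mice nor between cultures is known. In bulk RNA, more cells of a type and more RNA per cell cannot be told apart.

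Ratios were taken from background-corrected signals in arbitrary units divided by the 75th percentile of the array, which was 313 on the control array and 356 on the *Drp1*LiKO array. Of 56600 probes, 48.2% were well above background on the control array and 52.1% on the *Drp1*LiKO array, and no spot was saturated. As a check of the labels, the brightest *Dnm1l* probe gave 2602 in control against 1217 in *Drp1*LiKO cells (log2 ratio -1.28), while a dim second probe gave 22.8 against 20.9 (-0.31). The Z scores were -1.95 and -0.46, so neither probe passed a score of -2. All 9 hepatocyte markers were detected on both arrays, but markers of other liver cells were detected too, as described below.

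**Figure D1:**
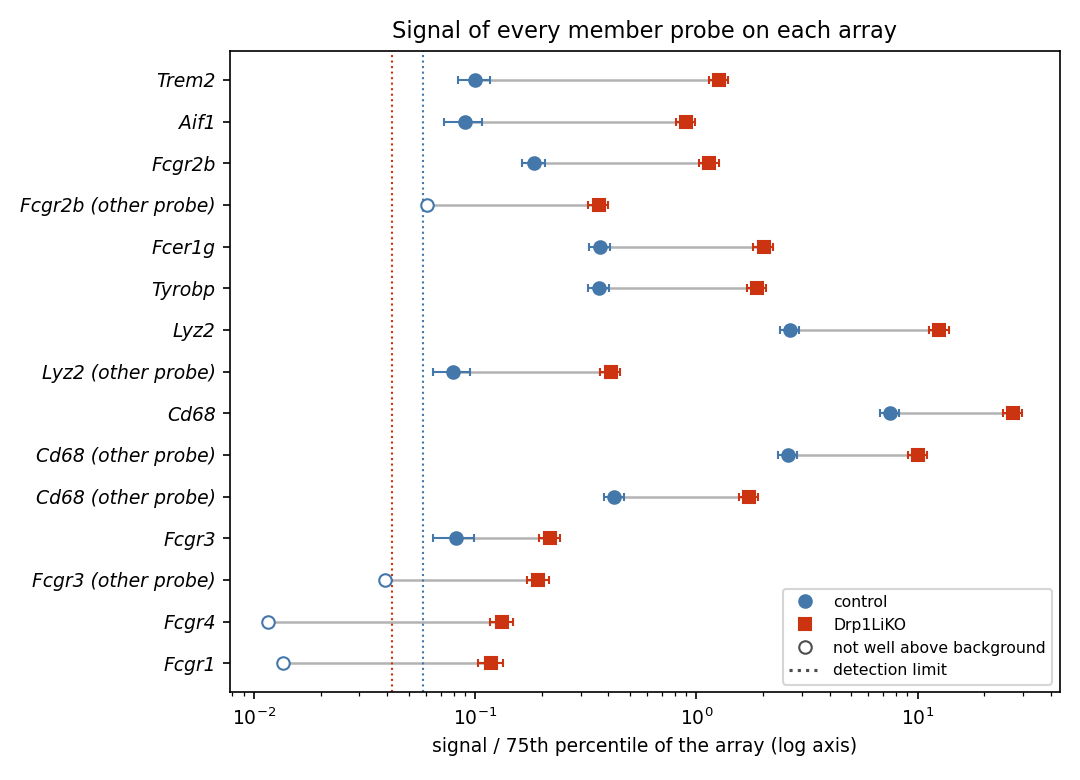
Signal of each of the 15 member probes divided by the 75th percentile of its array (log axis), with control as circles and *Drp1*LiKO as squares. Bars are the error that the image software gives for the spot, drawn for probes well above background, open symbols mark probes not well above background, and dotted lines mark the lowest signal that was. The *Drp1*LiKO square lies to the right of the control circle for every probe, and the 4 open symbols all belong to control.

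Of the activating Fcγ receptors, 1 was measured on both arrays and had the smallest ratio of the 8 members so measured, and the other 2 gave bounds. *Fcgr3*, which encodes the low-affinity activating receptor CD16, rose from 25.6 ± 5.30 (error of the spot, 1 array) in control to 77.6 ± 8.62 in *Drp1*LiKO cells (log2 ratio 1.42, 2.67-fold), with a Z score of 2.18, just past the threshold. Its second probe was not well above background in control (12.2) and gave 68.8 in *Drp1*LiKO cells, at least 3.32-fold higher. Here and below, such a lower bound was set against the lowest signal well above background on the control array, 18.2, or the probe's own signal where that was higher. *Fcgr4*, which encodes a receptor that binds some IgG subclasses with intermediate affinity, had a signal of 3.62 in control, not well above background, against 47.2 ± 5.57 in *Drp1*LiKO cells, at least 2.28-fold higher. *Fcgr1*, which encodes the high-affinity receptor CD64, had 4.24 in control, also not well above background, and 42.1 ± 5.47 in *Drp1*LiKO cells, at least 2.03-fold higher. The bounds of *Fcgr4* and *Fcgr1* stood at Z scores of 1.84 and 1.58, and these were the members short of the threshold. Their true ratios have no upper limit here, so their place in the order of the members is not known.

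The inhibitory receptor had a larger ratio than the measured activating one. *Fcgr2b* gave 58.0 ± 7.0 in control against 407 ± 40.9 in *Drp1*LiKO cells (log2 ratio 2.63, 6.19-fold). Its second probe gave 18.9 in control, not well above background, and 129 in *Drp1*LiKO cells, at least 6.00-fold higher, a bound that lay within 0.05 of the first ratio on the log2 scale. The ratio of *Fcgr2b* exceeded that of *Fcgr3* by the brightest probe of each gene, the second probes giving bounds only, and 1 array per genotype gives no error over mice for this difference.

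The adaptors had nearly equal ratios. *Fcer1g* rose from 115 ± 12.2 to 716 ± 71.7 (log2 ratio 2.46, 5.5-fold). *Tyrobp* rose from 114 ± 12.2 to 667 ± 66.8 (log2 ratio 2.37, 5.15-fold). The ratios differed by 0.09, less than the spread of 0.19 between spots for such a difference. *Trem2*, the lipid-sensing receptor that signals through *Tyrobp*, had the largest ratio of the 8 members measured on both arrays. It rose from 31.3 ± 5.22 to 449 ± 45.0, a log2 ratio of 3.66 (12.6-fold), rank 23 of the genes compared from the highest.

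*Aif1*, the gene of the macrophage marker Iba1, followed at rank 49. Its signal rose from 28.1 ± 5.38 to 320 ± 32.2 (log2 ratio 3.32, 10.0-fold). *Lyz2*, which encodes the lysozyme of macrophages and neutrophils, was at 829 ± 83.1 and 4464 ± 446, a log2 ratio of 2.25 (4.74-fold), and its second, dimmer probe went from 25.0 to 146, a log2 ratio of 2.36. Both probes thus gave like ratios. *Cd68* was well above background with all 3 probes on both arrays. Its brightest probe rose from 2346 ± 235 to 9593 ± 959, a log2 ratio of 1.85 (3.60-fold), and the others rose from 815 to 3585 and from 134 to 616, with log2 ratios of 1.96 and 2.02. Within the 4 genes with more than 1 probe, the log2 ratios spanned 0.17 for *Cd68*, 0.05 for *Fcgr2b*, 0.32 for *Fcgr3* and 0.12 for *Lyz2*, with a bound among the values of *Fcgr2b* and *Fcgr3*.

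The spread between spots was estimated from probes printed 10 times on each array, and for the member probes it came to 0.09 to 0.36 on the log2 scale of the ratio (median 0.14). It covers the printing and reading of 1 array and not animals or cultures. In the order of the 8 ratios measured on both arrays, *Fcgr3*, *Cd68*, *Lyz2*, *Tyrobp*, *Fcer1g*, *Fcgr2b*, *Aif1* and *Trem2*, only the steps from *Cd68* to *Lyz2* (0.40) and from *Fcgr2b* to *Aif1* (0.69) were more than 2 times the spread between spots. The other neighbors in that order did not differ beyond 2 times that spread. Among all genes, 5 members stood in the top 200.

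**Figure D2:**
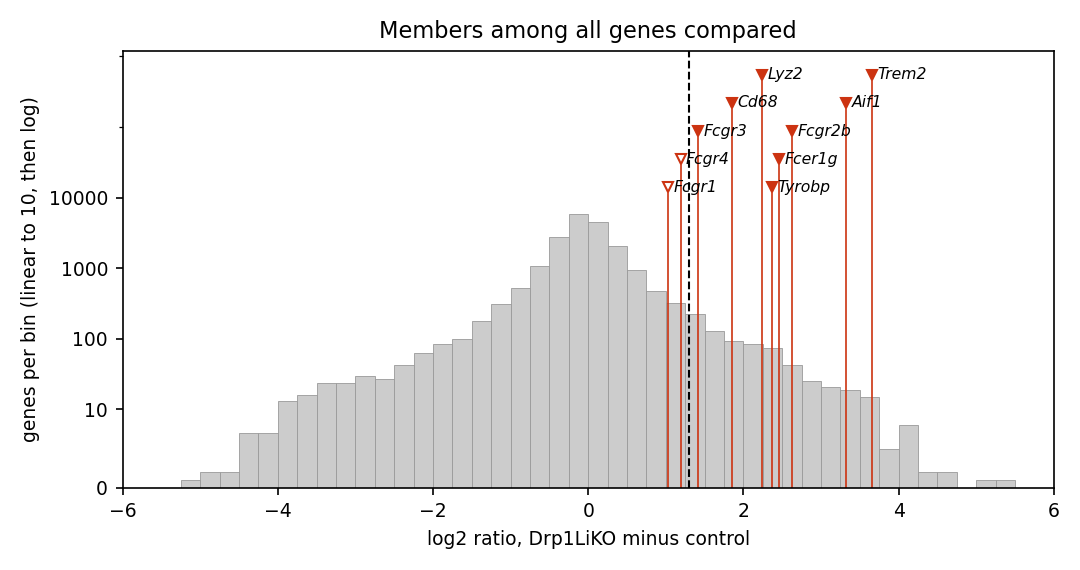
Histogram of the log2 ratio of *Drp1*LiKO to control for the 20165 genes compared (gray bars, vertical axis linear up to 10 and logarithmic above), with each member marked by a line and triangle. Open triangles are the lower bounds of *Fcgr1* and *Fcgr4*, the height of a triangle carries no value, and the dashed line is the Z score of 2 at a log2 ratio of 1.30. All members lie on the right of 0, from 1.02 to 3.66.

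Since all members were higher on the same array, their promoters were read for letters that myeloid and interferon-responsive genes are known for. RefSeq promoters (GRCm38.p6, 250 bases before to 50 after the annotated start) were listed for 9 of the 10 members, in 10 entries because *Fcgr3* has a pair of overlapping starts, while *Tyrobp* had no entry. The core GAGGAA of sites for PU.1, a transcription factor of myeloid cells, was searched on both strands and was found in 7 of the 10 entries, for *Aif1*, *Cd68*, *Fcgr1*, *Fcgr3*, *Fcgr4* and *Trem2*, and in 28.3% of all 32851 promoters. The interferon-stimulated response element GAAANNGAAA was found in *Aif1* and *Fcgr4* and in 3.44% of all promoters. A match describes letters and not a bound site. In the 2 promoters printed, those of the members with the largest ratios among the 8 measured on both arrays, capitals mark the PU.1 core (TTCCTC on the other strand). No match overlapped one of another motif. The promoter of *Trem2* lies at chr17:48346151-48346450 (plus strand) and that of *Aif1* at chr17:35176003-35176302 (minus strand).
Trem2: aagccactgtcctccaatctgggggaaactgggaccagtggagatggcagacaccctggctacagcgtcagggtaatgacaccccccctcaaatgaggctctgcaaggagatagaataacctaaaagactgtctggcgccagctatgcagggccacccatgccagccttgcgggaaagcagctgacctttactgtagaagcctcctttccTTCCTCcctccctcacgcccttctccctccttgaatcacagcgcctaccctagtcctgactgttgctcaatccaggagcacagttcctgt
Aif1: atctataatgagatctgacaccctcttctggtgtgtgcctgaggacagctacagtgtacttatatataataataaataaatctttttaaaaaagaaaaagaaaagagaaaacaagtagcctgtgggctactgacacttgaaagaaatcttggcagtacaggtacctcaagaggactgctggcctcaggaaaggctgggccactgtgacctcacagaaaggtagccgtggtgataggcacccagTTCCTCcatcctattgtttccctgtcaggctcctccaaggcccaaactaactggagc
The PU.1 core began 55 bases before the annotated start in *Fcgr1*, 40 in *Trem2* and 7 in *Aif1*. In *Fcgr4* it lay 22 bases before the start and in *Fcgr3* 15 or 6, depending on the entry, while the matches of *Cd68* lay 225 bases before and 29 after it. *Spi1*, the gene of PU.1 itself, was not well above background on either array.

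The genes around the members' probes centered near 0. Of 58 other gene names with a probe within 50 kb in mm9, 46 were compared, with a median log2 ratio of 0.01, and 5 were higher and 1 lower past the Z score. *Lyz1*, the lysozyme gene beside *Lyz2*, rose from 123 to 666, with the same log2 ratio of 2.25 as *Lyz2*. Their probes shared no run of 20 bases, but whether either also reads the transcript of the other gene was not tested. Beside *Trem2*, *B430306N03Rik* rose from 23.5 to 127 (log2 ratio 2.25) and *Treml2*, a related receptor, had a bound of 1.43 on the log2 scale, with 55.8 in *Drp1*LiKO cells. Near *Fcer1g*, the higher genes were *Nr1i3*, the nuclear receptor CAR of hepatocytes, at 19.9 and 104, and the metalloprotease gene *Adamts4*, at 133 and 452. *Apoa2*, a hepatocyte apolipoprotein gene 3.35 kb from the *Fcer1g* probe, had a log2 ratio of -0.23. The lower neighbor was the histone gene *Hist2h2bb* near *Fcgr1*, which fell from 465 to 177. *Hcst*, which encodes the adaptor DAP10 and lies 2.08 kb from the *Tyrobp* probe, gave 39.3 and 71.7, a log2 ratio of 0.69 and short of the threshold, as were *Lst1* (-0.21) and *Tnf* (-0.17) near *Aif1* and *Eif4a1* (-0.05) near *Cd68*.

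Of 13 other Fc receptor genes on the array, 7 were compared, none passed the Z score in either direction, and their median log2 ratio was -0.02. *Fcgrt*, the neonatal receptor that recycles IgG and is made by hepatocytes as well as macrophages, gave 1057 in control against 1180 in *Drp1*LiKO cells (log2 ratio -0.02). *Pigr*, which carries IgA across epithelia, gave 11861 against 28515, a log2 ratio of 1.08. *Trim21*, the cytosolic antibody receptor, had a log2 ratio of 0.43, and *Fcrl5* and *Fcmr*, known for B cells, had -0.23 and -0.53. Of the receptors that pair with *Fcer1g* or *Tyrobp*, other than the members, 15 of 20 were compared and 3 passed the score, with a median of 0.31. These were *Cd300ld* (28.5 to 149, log2 ratio 2.20), *Clec4n*, the gene of Dectin-2 (36.3 to 151, 1.87), and *Lilra6* (32.2 to 99.3, 1.44). The other probe of *Cd300ld* gave 1.03, short of the score. The lowest of these receptors were *Sirpb1a* (-0.33) and *Oscar* (-0.31).

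Of the other receptors with inhibitory motifs, 6 of 12 compared were higher and 1 lower past the score, with a median log2 ratio of 1.19. *Cd72*, a lectin-like coreceptor known for B cells and also made by macrophages, gave 26.8 and 362, a log2 ratio of 3.58, with 2.25 by its other probe. *Clec12a*, which restrains myeloid cells, gave 45.6 and 258 (2.31). *Siglece* had -0.10. *Pirb* had -0.12 by its brightest probe, with 2.66 by another, so its probes disagree. The lower gene, *Cd33*, fell from 43.7 to a signal not well above background, and it is named because it was the only one, after its value was seen.

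Of the genes that carry the signal onward from the motifs, 6 of 25 compared passed the score, none was lower past it, and the median was 0.33. *Syk*, the kinase that docks on phosphorylated ITAMs, gave 208 and 1364 by its brightest probe, a log2 ratio of 2.53, but its 4 probes ran down to 0.10. *Lyn*, which serves activating and inhibitory receptors alike, gave 5246 and 3576 (-0.74), and *Plcg2*, the phospholipase downstream of Syk, 536 and 512 (-0.25).

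The phagocyte NADPH oxidase, which makes superoxide after Fcγ receptor engagement, had 5 of 6 genes past the score and, of the 7 related lists, the median nearest to that of the members, 2.08. *Rac2*, its small GTPase, rose from 21.1 to 123 (log2 ratio 2.36). *Cyba*, the membrane subunit p22phox, rose from 219 to 919 (1.89). The others were not well above background in control. *Ncf4* was at least 5.35-fold and *Cybb*, the catalytic subunit, at least 2.53-fold higher, with 111 and 52.3 in *Drp1*LiKO cells, while *Ncf1* gave 23.2, at least 1.12-fold higher and short of the score. The second probe of *Cybb* gave only 0.44 on the log2 scale of the ratio.

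*Trem2* is known as a marker of lipid-associated macrophages, and the other genes of that state split. Of 9 compared, 4 passed the score, and the median log2 ratio was 0.08. *Clec7a*, the gene of Dectin-1, gave 91.6 and 563 (2.44), with -0.21 by its other probe. *Lpl*, lipoprotein lipase, gave 126 and 535 (1.91) by its brightest probe, but its 5 probes ran down to 0.57. *Spp1*, osteopontin, gave 24719 and 20346 (-0.46), and *Fabp5*, a fatty acid binding protein, 49185 and 47498 (-0.23). Among 11 growth factor receptors, ligands and transcription factors of myeloid cells compared, none was higher past the score and 2 were lower, with a median of 0.21. *Irf8*, a transcription factor of monocytes, gave 93.8 and 251 (1.23). *Csf1r*, the macrophage growth factor receptor, gave 942 and 1773 (0.73) by its brightest probe, with -0.02 by its other probe. *Csf1*, its ligand, fell from 7960 to 2411 (-1.91), and *Csf2rb* had -0.89 by its brightest and 1.74 by its other probe. The other lower gene was *Ikzf1*, with 123 in control and a signal not well above background in *Drp1*LiKO cells. Over all 7 lists, 85 genes were compared, of which 24 were higher and 3 lower past the score, with a median of 0.33. Of 47 genes of these and the marker lists with several detected probes, 15 had probes of opposite sign.

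**Figure D3:**
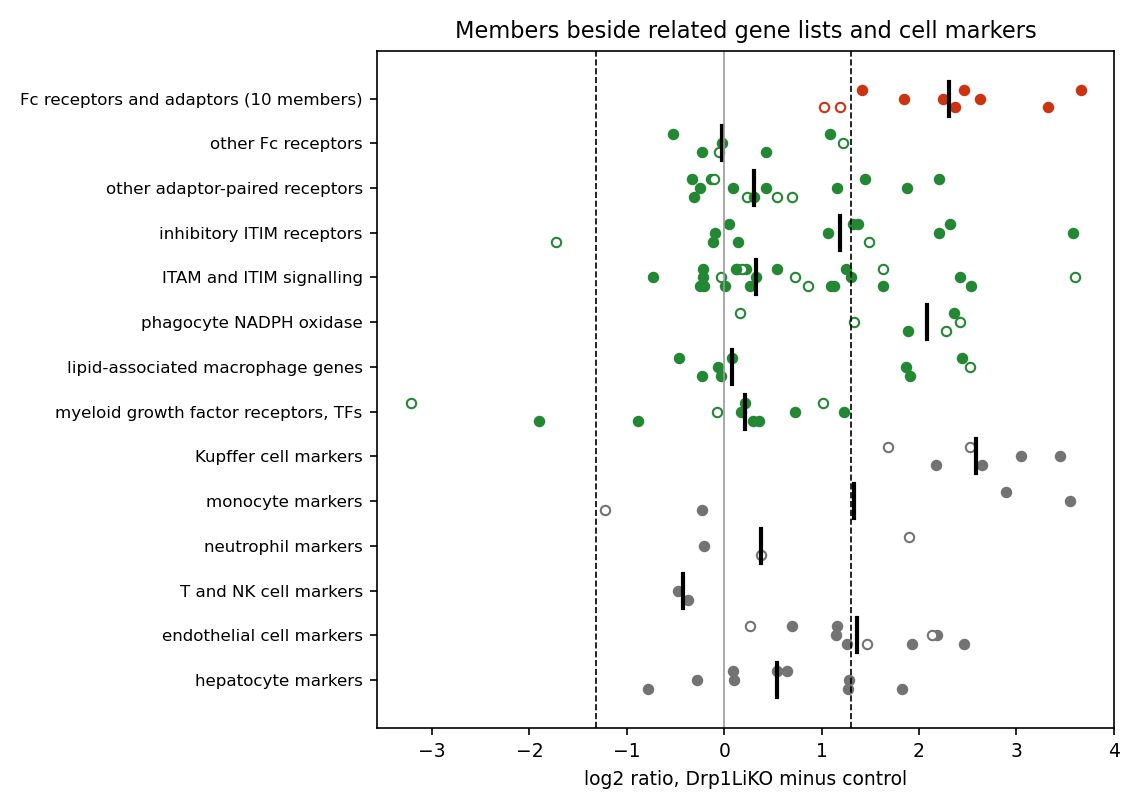
Log2 ratio of *Drp1*LiKO to control for each gene of the members (red), of the 7 related lists (green) and of 6 cell marker lists (gray), 1 point per gene. Open points are bounds from genes not well above background on 1 array, thick bars are list medians, and dashed lines are Z scores of 2 and -2. The members (median 2.31), the NADPH oxidase (2.08) and the Kupffer cell markers (2.59) lie furthest to the right, and the other Fc receptors center on -0.02.

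Markers of Kupffer cells moved with the members, and those of monocytes split. For Kupffer cells, the resident macrophages of the liver, all 6 markers compared of 8 on the array were higher past the score. Their median was 2.59, and their summed signal, relative to the 75th percentile, went from 1.23 in control to 9.08 in *Drp1*LiKO cells. Of these 6, 4 were measured on both arrays, with a median of 2.85. *Clec4f* and *Vsig4* were not well above background in control, so their direction was largely set by the filter. *Marco*, a scavenger receptor, gave 50.7 and 628 (log2 ratio 3.45), and *Folr2*, a folate receptor, 81.4 and 417 (2.17), while *Timd4* and *Cd163* were not well above background on either array. Of 4 monocyte markers compared, 2 were higher past the score, *Ly6c2* at 151 and 2011 (3.55) and *Plac8* at 285 and 2404 (2.89), and these carried the rise of the summed signal from 1.73 to 12.7. *Vcan* had -0.23, *Chil3* went from 30.8 to a signal not well above background, and *Ccr2* and *F13a1* were not well above background on either array. Of 6 pan-leukocyte markers compared, 4 were higher and 2 lower, with 3 higher past the score. Their sum went from 12.9 to 26.5, and *Lcp1*, at 2057 and 6640 (1.51), carried most of that rise. *Cd52* had 2.73, and *Arhgdib* -0.01 by its brightest probe and 3.01 by the other. The part of these cells in the members' ratios was not tested.

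Neutrophil markers summed to 2.15 and 2.05, mostly through *Elane* at 635 and 623 (log2 ratio -0.21), and *S100a8*, *S100a9*, *Mpo*, *Ngp*, *Ltf*, *Cxcr2* and *Retnlg* were not well above background on either array, while *Ly6g* was at least 3.72-fold and *Camp* at least 1.30-fold higher, the first past the score. None of 6 dendritic cell markers was detected. T and NK cell markers summed to 4.24 and 3.09, B cell markers to 0.10 and 0.109 and mast cell markers to 0.113 and 0.148. Of 4 markers of mast cells, which also make *Fcer1g*, *Tpsb2* alone was detected, with a log2 ratio of 0.38, and *Cd3e* and *Cd4*, the only T cell markers detected, had -0.37 and -0.47. Of the 10 markers of endothelium, which also makes *Fcgr2b*, all had ratios above 0 by their brightest probes and 5 passed the score, with sums of 13.9 and 25.5. However, *Lyve1*, *Tek* and *Tie1* were not well above background in control, so their direction was largely set by the filter. *Lyve1* and *Tie1* were among those that passed. Of the 7 measured on both arrays, *Kdr* was highest at 2.47 and *Egfl7* lowest at 0.70. The part of endothelial cells in the ratio of *Fcgr2b* was not tested. Stellate cell markers went from 0.959 to 4.12, with *Col1a2* at 2.93 by its brightest probe and -0.18 by the other and *Reln* at 1.04, and cholangiocyte markers from 14.9 to 12.8, with *Sox9* at 0.58 and *Krt19* at -0.40. Hepatocyte markers summed to 974 and 1140, with *Ahsg* at 1.83 and *Cyp2e1* at -0.78.

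The members kept their direction across the ways of processing tried, but not their size. Under each of 11 alternatives every member that had a value was higher in *Drp1*LiKO cells, and 7 to 10 of them passed the score. The share of all genes higher past the score ran from 3.17% to 8.54%, highest with a robust score. Normexp, a background correction, was run with an offset of 50, which is added to every signal and weighs most on dim ones. It lowered *Trem2* to 2.27, *Aif1* to 1.80 and *Fcgr3* to 0.45, the last no longer past the score. It also put *Fcgr1* at 0.22 and *Fcgr4* at 0.34, short of the score and below their bounds. *Fcgr3* also fell short, with its ratio unchanged, without the detection limit as a floor and when the score was taken among probes of similar signal. Without raising dim control signals to the detection limit, *Fcgr1* and *Fcgr4* stood at log2 ratios of 3.13 and 3.52 and passed the score. In the authors' deposited normalized values all 15 probes were higher, with *Trem2* at 3.45 and *Fcgr2b* at 2.05. The *Drp1*LiKO column of those values does not keep the order of signals on the *Drp1*LiKO array, so these ratios carry less weight: the brightest *Fcgr2b* probe and that of *Aif1* gave 407 and 320 on the array but 269 and 305 in that column.

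**Figure D4:**
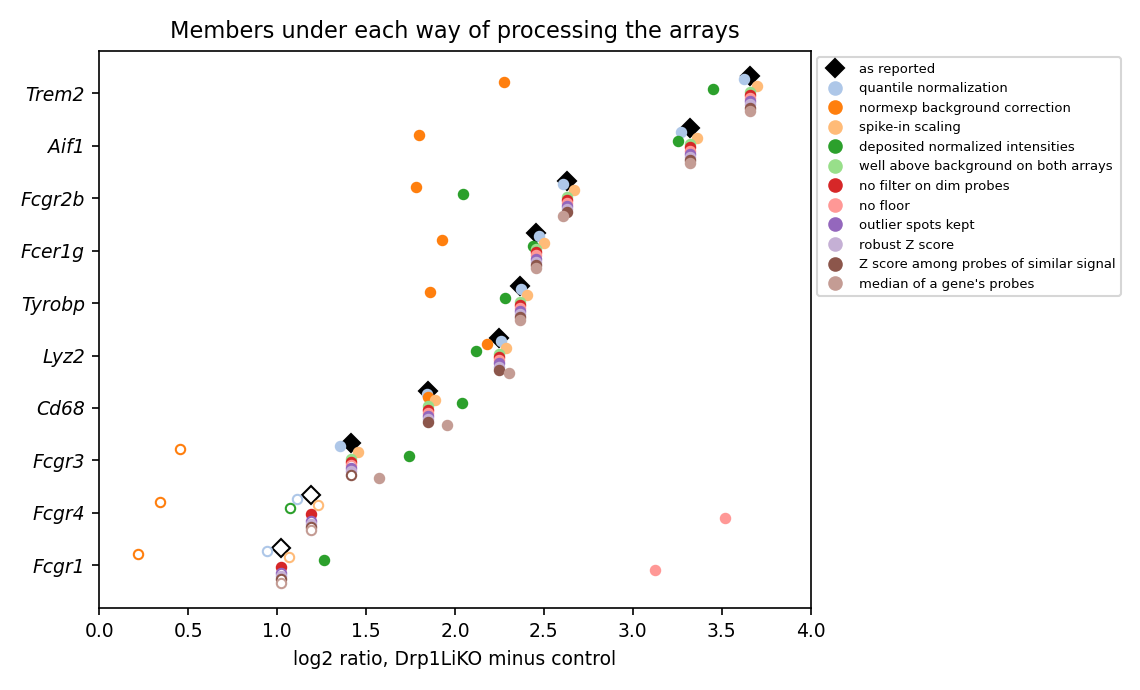
Log2 ratio of each member under the processing reported (black diamonds) and under 11 alternatives (colored circles), filled where the Z score reached 2. All points lie above 0, normexp gives the lowest values for the dim genes, and *Fcgr1* and *Fcgr4* reach 3.13 and 3.52 only without the detection limit.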

How the data were processed

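RNA of mouse primary hepatocytes was hybridized to 1 one-color array per genotype, and the grouping follows the sample labels. The authors deposited the spot intensities of each array, as Agilent Feature Extraction wrote them (10.7.1.1 in the file header, 9.5.1.1 in the submitters' processing notes), raw and background-corrected. They also deposited normalized intensities, whose method is not given in the sources used here, and these served only as an alternative. Outlier and control spots were left out, processed signals were averaged per probe on the log2 scale, less the 75th percentile of that array. A probe entered where at least 1 array had it well above background. Dim signals were raised to the lowest signal well above background, which makes such ratios bounds. A gene was its brightest probe, and a Z score of 2 set the threshold. No test was run.

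The members and gene lists were chosen with earlier results of these data known. Named were all members, *Dnm1l*, the 2 highest and 2 lowest genes measured on both arrays per related list, the highest and lowest per marker list, all NADPH oxidase genes, and genes within 50 kb of a member's probe, except items that are not reported here. *Spi1*, *Cd33*, *Ikzf1*, *Ly6g*, *Plac8*, *Chil3*, *Elane*, *Camp*, *Clec4f*, *Vsig4*, *Lyve1*, *Tek*, *Tie1*, *Lcp1* and second and further probes were added after their values were seen. The same holds for markers listed as not detected. The alternatives were quantile normalization, normexp (limma 3.58.1, R 4.3.3), spike-in scaling, the deposited values, 2 other filters, no floor, outlier spots kept, 2 other Z scores and the median of a gene's probes. The calculation recovered changes put into simulated data. These were put only into genes brighter than most members were in control, so recovery at dim signals was not tested. Python 3.11.15, numpy 2.4.6 and pandas 2.3.3 were used. The number of arrays limits the precision.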

Additional observations from a re-analysis of the deposited data

How the results depend on the processing

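The count of members past the score was 8 as reported and 7 to 10 under the 11 alternatives. Of all genes, 3.5% were higher past the score as reported, 8.54% with a robust score and 3.17% to 4.07% under the other alternatives. The members' median log2 ratio of 2.31 became 1.82 with normexp, 2.08 with the deposited values and 2.54 without a floor. *Fcgr3* passed the score as reported and fell short with normexp, without a floor and with the score among probes of similar signal, whereas *Fcgr1* and *Fcgr4* passed with no filter on dim probes, without a floor and with a robust score, and *Fcgr1* also with the deposited values. With only probes well above background on both arrays these 2 genes had no value. For other Fc receptors the count past the score, 0 as reported, was 1 with normexp, without a floor and among probes of similar signal, and 2 with no filter or a robust score. For receptors pairing with the adaptors it was 3 as reported, 6 without a floor and 5 with a robust score, and their median of 0.31 turned to -0.011 with no filter, which also moved the median of all genes from -0.05 to -0.47. Signaling genes went from 6 to 10 with no filter and 11 with a robust score. The NADPH oxidase went from 5 of 6 to 2 of the 2 genes measured on both arrays, and to 3 of 6 with the median of a gene's probes. The lipid-associated list went from 4 to 2 with the median of a gene's probes. Myeloid growth factor receptors and transcription factors went from 0 to 1 with normexp, the deposited values, both arrays or no floor, 2 with no filter and 3 with a robust score. The cause of these moves was not tested, except that fewer genes enter when both arrays must measure a probe. A robust score also called more of all genes. No paired analysis was possible because each genotype has 1 array. Signals close to the detection limit of 18.2 on the control array and 15 on the *Drp1*LiKO array fix ratios only loosely, which concerns *Fcgr1*, *Fcgr3* and *Fcgr4* most.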
